A study of Mus musculus with 6 samples.

Results

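The genes described here are the 5 subunits of the transcription factor NF-kB (Nfkb1, Nfkb2, Rel, Rela and Relb) and 5 genes whose products restrain or modify it (Nfkbia, Nfkbid, Nfkbie, Nfkbiz and Tnfaip3). They were chosen by name, 10 of the 55335 genes in the deposited count table, and each symbol was found there. All 10 passed the expression filter that left 11074 genes for testing.

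The data are bulk RNA-seq of CD4 T cells from the colon lamina propria of mice. Naive splenic CD4 T cells of TcfGFP mice, in which GFP reports on the Tcf7 locus, were given to Rag1 KO hosts, where colitis developed. GFP-positive cells, which the labels call TCF7+ and stem-like, and GFP-negative cells, which they call TCF7- and effector, were then collected, with 3 libraries of each. Donor strain, transfer and host were shared by both groups. The hosts have no T or B cells of their own but keep their myeloid, stromal and epithelial cells. Age, sex, time after transfer and the gating are not stated in the labels. They also do not say that each replicate was another mouse, and p-values here measure the spread between libraries, which may be technical.

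NF-kB proteins are dimers of Rel-family subunits. In a resting cell, IkB proteins hold them in the cytoplasm, and signals from the T cell receptor, CD28 or TNF-family receptors activate IkB kinase, which marks IkB for destruction and frees the dimer to enter the nucleus. The canonical route uses mainly RelA, c-Rel and the p50 product of Nfkb1, and the slower non-canonical route uses RelB and the p52 product of Nfkb2. Nfkbia and Tnfaip3 are themselves induced by NF-kB and shut the signal off again. In CD4 T cells these factors serve activation, survival and cytokine expression. Nuclear entry and degradation of the proteins are not read by mRNA counts.

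The library totals ran from 4309500 to 7462076 counts. Tcf7 stood at 121, 140.5 and 71.3 CPM (counts scaled to a common library total with TMM factors) in replicates 1 to 3 of the GFP-negative group. The GFP-positive libraries had 237, 183 and 140.8 CPM, with an edgeR adjusted p of 0.367. The lowest of them lay only just above the highest GFP-negative library. Of all tested genes, 7.25% were higher in GFP-positive cells without overlap. All 12 T cell identity genes were tested, with mean levels from 241 to 1436 CPM. Together they held 0.721% of counts in GFP-positive replicate 3, against 0.920% to 1.02% in the other 5 libraries. Cd8a had 72 to 585 counts a library and Cd8b1 6 to 52, and which cells they came from was not tested. The 7 B and plasma cell markers held 0.000897% to 0.00687% of counts, mostly from Ighm (40 to 288 counts), while Ms4a1 and Pax5 were at 0 in every library. GFP-positive replicate 3 stood apart, as its 15 myeloid markers held 0.716% of counts, against 0.0140% to 0.0200% in the other 5 libraries, and its 9 markers of antigen-presenting cells held 0.660% against 0.0187% to 0.0447%. Its epithelial markers (0.0476% against 0.00368% to 0.0103%) and stromal markers (0.0389% against 0.00424% to 0.00886%) were high too. Lyz2, the lysozyme of macrophages and neutrophils, had 29399 counts there and 286 to 524 elsewhere.

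Nfkbia and Tnfaip3, the negative regulators that NF-kB itself induces, were the highest of these genes per length in each of the 6 libraries. Sequences around the start sites of these genes are shown because several of the 10 are known targets of NF-kB. RefSeq promoter windows (GRCm38.p6, 250 bases before to 50 after a start) were matched by symbol for 7 of the 10 genes. They were searched on both strands for GGG, any 2 bases, TT, any base and CC, a short form of the NF-kB binding sequence that covers part of the sites the factor is known to bind. The motif was in at least 1 window of 5 of the 7 genes, namely Nfkb2, Rel, Nfkbia, Nfkbid and Tnfaip3. Over all 27018 genes with a window, 5.48% held it. A gene with more windows has more chances of a match, and windows of a gene can overlap. By window, 7 of the 12 windows of these genes held the motif, against 4.80% of all 32841 windows. The 7 include overlapping Nfkb2 windows that hold the same site, chr19:46305705-46305714, so that site is counted more than once. No match was found for Rela and Nfkbie, which says only that these letters are not in their windows. A match is a description and not a shown binding site. The matches are given below in capitals within 10 bases on each side, 5′ to 3′ on the strand of the gene.
Nfkbia (chr12:55492667-55492676, minus strand): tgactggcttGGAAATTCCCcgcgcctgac
Tnfaip3 (chr10:19015413-19015422, minus strand): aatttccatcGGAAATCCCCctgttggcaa
Nfkbid (chr7:30422180-30422189, plus strand): gccccgccctGGGACTTCCCagagcaccac
Rel (chr11:23771052-23771061, minus strand): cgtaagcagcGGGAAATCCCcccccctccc
Nfkb2 (chr19:46304698-46304707, plus strand): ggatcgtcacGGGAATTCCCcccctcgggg
Nfkb2 (chr19:46304726-46304735, plus strand): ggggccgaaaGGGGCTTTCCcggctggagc
Nfkb2 (chr19:46305705-46305714, plus strand): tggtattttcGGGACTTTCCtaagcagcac

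In Rel, and in the second Nfkb2 site, another match overlaps the one shown, shifted by 1 base, and the first Nfkb2 site matches on both strands. In the GENCODE M21 annotation, the sites of Rel and Nfkbia lie before the gene. Those of Nfkb2 lie in its exons, and those of Nfkbid and Tnfaip3 lie inside the gene but outside its exons. Nfkbia had the highest level per length, and both annotations place its start alike, so the 250 bases before that start (chr12:55492648-55492897) are given, with the motif in capitals.
Nfkbia: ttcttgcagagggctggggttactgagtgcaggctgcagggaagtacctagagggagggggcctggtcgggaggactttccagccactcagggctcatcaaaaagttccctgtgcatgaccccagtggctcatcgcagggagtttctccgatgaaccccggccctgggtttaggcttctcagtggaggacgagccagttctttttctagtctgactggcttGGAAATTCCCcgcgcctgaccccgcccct

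The comparison is of NF-kB mRNA between the GFP-positive and GFP-negative gates. None of the 10 genes was called higher or lower. By edgeR's quasi-likelihood test 0 of 10 passed an adjusted p of 0.05, where 0.108% of the 11074 tested genes did (0.0361% higher and 0.0722% lower in GFP-positive cells), and 0 of 10 had an unadjusted p under 0.05, where 10.3% did. DESeq2 and limma-voom also called 0. The edgeR adjusted p-values ran from 0.641 for Nfkb2 to 0.989 for Relb. The 2 groups overlapped for all 10 genes. Groups did not overlap for 16.0% of tested genes (7.25% higher and 8.80% lower in GFP-positive cells). For Rela and Nfkbia the only GFP-positive library within the GFP-negative range was replicate 3, and for Nfkb1 it was replicate 2. Leaving out 1 library took the log2 fold change (GFP-positive minus GFP-negative) of Rela to -0.35 at the lowest and that of Nfkbia to -0.21. GFP-positive replicate 3 was the library with the myeloid transcripts, and their part in these values was not tested.

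The intervals give a range for the size of each difference, set by the spread between these 6 libraries. They need not cover the spread between mice. The 95% interval of the log2 fold change (GFP-positive minus GFP-negative throughout) lay within a 2-fold change in either direction for all 10 genes, as it did for 51.5% of the tested genes. The interval reaching furthest down was that of Nfkb2, to a ratio of 0.55, and the one reaching furthest up that of Nfkbie, to 1.49. Intervals were not computed with a library left out. Without GFP-negative replicate 1 the log2 fold change of Nfkb2 was -0.60 ± 0.19 (SE), further from 0 than with all libraries. The sorted populations were measured in bulk, so fewer cells expressing a gene and less mRNA per cell cannot be told apart.

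**Figure D1:**
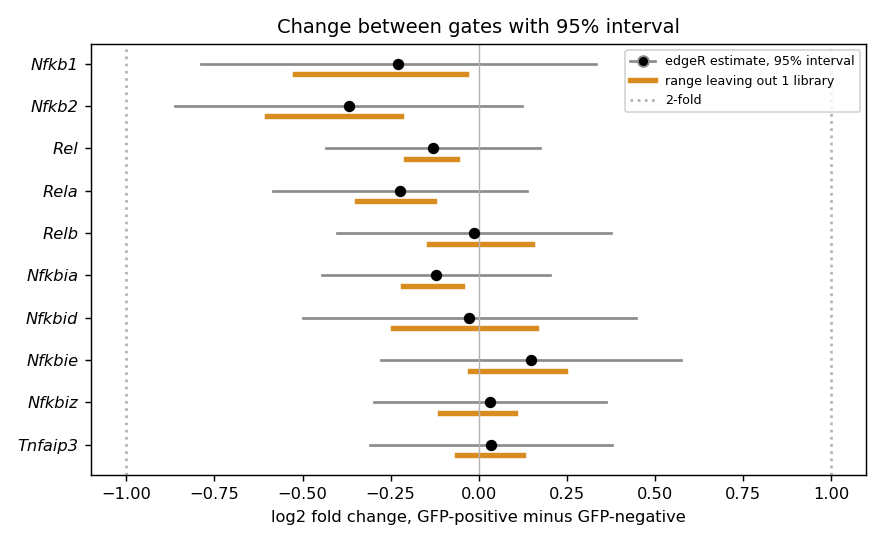
Log2 fold change of each gene, GFP-positive minus GFP-negative (horizontal axis), with the edgeR estimate as a black point, its 95% interval as a grey line and the range of estimates leaving out 1 of the 6 libraries as an orange line. Every grey line crosses 0 and stays inside the dotted 2-fold lines, and for 5 genes, Relb, Nfkbid, Nfkbie, Nfkbiz and Tnfaip3, the orange range also crosses 0.

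Among the subunits, Rela and Rel were the most abundant per length. Gene positions are given on mm10 where each gene is described. Rela (chr19:5637483-5648130) encodes p65, which carries the strong activation domain of the canonical dimer. GFP-negative replicates 1, 2 and 3 had 121, 141 and 157 CPM, and their GFP-positive counterparts 103, 115 and 140.0 CPM. The GFP-positive libraries reached the lower value, but replicate 3 of that gate lay above GFP-negative replicate 1. The mean was 139.7 ± 17.9 against 119.5 ± 18.7 CPM (SD, n = 3 each, GFP-negative first), and the log2 fold change was -0.22 ± 0.17 (SE; edgeR adjusted p = 0.712).

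Rel (chr11:23736847-23770970) encodes c-Rel, the subunit most tied to lymphocyte activation. Its level was 354, 331 and 284 CPM in the GFP-negative libraries and 308, 274 and 304 CPM in the GFP-positive ones, on 1193 to 2118 counts. The GFP-positive values lay within the GFP-negative range or just below it. Rel had the narrowest within-group spread of the 10 genes, with an SD of 0.13 on the log2 scale where the median tested gene had 0.35. The log2 fold change was -0.13 ± 0.14 (SE; edgeR adjusted p = 0.817), and its interval ran from a ratio of 0.74 to 1.13.

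Nfkb1 (chr3:135584655-135691547) encodes p105, an IkB-like precursor that is cut to the subunit p50. It had 52.7, 75.7 and 60.5 CPM in GFP-negative libraries and 38.1, 74.0 and 49.5 CPM in GFP-positive ones. Replicate 2 was the highest library in both gates, and GFP-positive replicate 1 was the lowest of all 6. The log2 fold change was -0.23 ± 0.26 (SE; edgeR adjusted p = 0.825) and moved to -0.52 when GFP-positive replicate 2 was left out and to -0.036 when GFP-positive replicate 1 was.

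Nfkb2 (chr19:46304320-46312385) encodes p100, the precursor of p52, and had the largest log2 fold change of the 10 genes, at -0.37 ± 0.23 (SE; edgeR adjusted p = 0.641). It had 84.5, 155 and 146 CPM in the GFP-negative libraries and 119, 95.6 and 83.3 CPM in the GFP-positive ones. GFP-negative replicates 2 and 3 were the highest libraries, while GFP-negative replicate 1 was close to the lowest. Without that library the log2 fold change was -0.60 and the edgeR adjusted p 0.305. Exons of Nfkb2 overlap exons of Psd and of AC114539.1 on the other strand, and these libraries do not record the strand. Psd had 7 to 20 counts per library where Nfkb2 had 416 to 688. AC114539.1 was not found by that name among the deposited counts, so its part in the Nfkb2 reads was not tested.

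Relb (chr7:19606217-19629438) encodes the subunit that pairs with p52 or p100 in the non-canonical route. It had 108, 151 and 112 CPM in GFP-negative and 118, 143 and 105 CPM in GFP-positive libraries, so that the pattern over replicates 1 to 3 was alike in both gates. Its means were the closest of the subunits, 123 ± 23.8 against 122 ± 19.5 CPM (SD, n = 3 each), and the log2 fold change was -0.01 ± 0.18 (SE; edgeR adjusted p = 0.989). All 5 subunits had a log2 fold change below 0, as did 48.4% of tested genes, and the median of the 5 was -0.22 where that of all tested genes was 0.02. This direction was the same for the 5 under each scaling tried, although Relb was above 0 when any of 3 libraries was left out, at most to 0.15 without GFP-negative replicate 2.

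**Figure D2:**
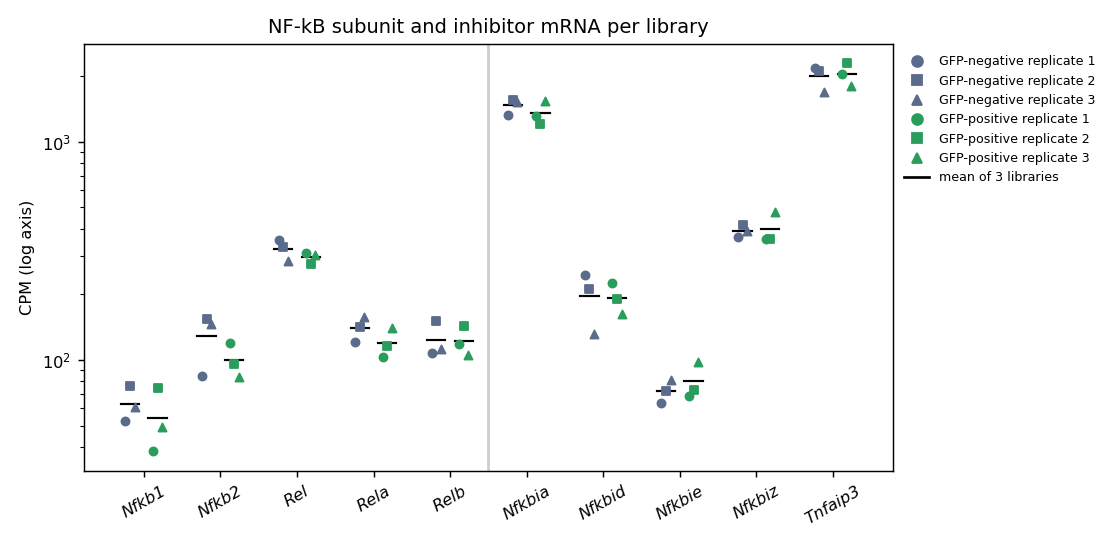
Level of each gene in CPM (vertical log axis) in the 6 libraries, blue for GFP-negative and green for GFP-positive, with a marker shape for each replicate number and a bar at the mean of 3 libraries. The subunits, left of the grey line, lie between 38.1 and 354 CPM, Nfkbia and Tnfaip3 lie at or above 1211 CPM, and for each gene the blue and green points overlap.

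The inhibitors showed as little difference. Nfkbia (chr12:55489410-55492647) encodes IkB-alpha, the classical inhibitor that is destroyed on stimulation and made anew. It stood at 1328, 1557 and 1519 CPM in GFP-negative libraries and at 1307, 1211 and 1531 CPM in GFP-positive ones, on 5268 to 10673 counts. GFP-positive replicates 1 and 2 were the lowest libraries and GFP-positive replicate 3 the second highest. The log2 fold change was -0.12 ± 0.15 (SE; edgeR adjusted p = 0.844), with an interval from a ratio of 0.73 to 1.15.

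Tnfaip3 (chr10:19000910-19015657) encodes A20, a ubiquitin-editing enzyme that ends signalling from TNF and antigen receptors. It had 2172, 2105 and 1699 CPM in GFP-negative libraries and 2036, 2286 and 1802 CPM in GFP-positive ones, higher per read than 99.7% of tested genes. Replicate 3 was the lowest of both gates. The log2 fold change was 0.04 ± 0.16 (SE; edgeR adjusted p = 0.966), and the interval ran from a ratio of 0.81 to 1.30.

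Nfkbie (chr17:45555703-45563169) encodes IkB-epsilon, a slower cytoplasmic inhibitor. It had 63.2, 71.9 and 81.1 CPM in GFP-negative libraries and 68.1, 72.9 and 98.2 CPM in GFP-positive ones. Its log2 fold change, 0.15 ± 0.20 (SE; edgeR adjusted p = 0.860), was the highest of the 10 genes and was -0.02 without GFP-positive replicate 3, the library with the myeloid transcripts.

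Nfkbid and Nfkbiz encode nuclear IkB-like proteins that bind NF-kB dimers on DNA and can raise or lower transcription there. IkB-zeta, the product of Nfkbiz, is known for its part in the Th17 programme. Nfkbiz (chr16:55811375-55838899) had 367, 414 and 390.3 CPM in GFP-negative libraries and 360.0, 359 and 478 CPM in GFP-positive ones. The GFP-positive library with 478 CPM was again replicate 3, and the log2 fold change was 0.03 ± 0.15 (SE; edgeR adjusted p = 0.970) with it and -0.11 without it. Nfkbiz and Nfkbie were the genes of the 10 that were highest in GFP-positive replicate 3, and the part of its myeloid, antigen-presenting, epithelial and stromal transcripts in those values was not tested.

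Nfkbid (chr7:30421732-30428746), which encodes IkB-NS, varied most among the inhibitors. It had 245, 212 and 131 CPM in GFP-negative libraries and 226, 189 and 163 CPM in GFP-positive ones. In both gates replicate 1 was highest and replicate 3 lowest, and the spread within a gate exceeded the difference between the gate means of 196 ± 58.8 and 193 ± 31.7 CPM (SD, n = 3 each). Its log2 fold change was -0.03 ± 0.22 (SE; edgeR adjusted p = 0.983). Genes induced by tissue dissociation, a list of 24 without any of the 10, held 3.31%, 2.66% and 2.14% of counts in replicates 1 to 3 of the GFP-negative gate. In the GFP-positive gate the shares were 3.88%, 3.15% and 2.65%, and both ran from high to low in the same libraries as Nfkbid. Their part in the Nfkbid values was not tested.

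Of the 5 inhibitors, 3 had a log2 fold change above 0 (Nfkbie, Nfkbiz and Tnfaip3), as did 51.6% of tested genes, and 2 were below, with a median of 0.03. On the deposited TPM scale only Nfkbie stayed above 0. The median of all 10 genes was -0.07, which became -0.025 when GFP-negative replicate 2 was left out, and -0.13 when GFP-positive replicate 3 was or when TPM were used.

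Levels of different genes were compared per length, in the deposited TPM, which scale reads by transcript length and library. Nfkbia was far the highest, at a mean of 2494 TPM over the 6 libraries, followed by Tnfaip3 at 798 TPM. The lowest library of Nfkbia, at 2116 TPM, was 2.38 times the highest of Tnfaip3, at 890.1 TPM. Nfkbid (238 TPM) and Nfkbiz (223 TPM) came next and did not differ beyond their spread, as Nfkbid was the higher in 4 of 6 libraries.

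Below them came Rela at 120.1, Rel at 118, Relb at 90.5, Nfkb2 at 71.4 and Nfkbie at 70.7 TPM, and each neighbour in that order overlapped the next. Nfkb1 was the lowest in every library, between 9.47 and 18.8 TPM, and no library of Nfkbie, its neighbour in the order, came below 59.9 TPM. The mRNA of Nfkbia was thus on average 180.2 times as abundant per length as that of Nfkb1. This ratio rests on the lengths behind the deposited TPM, for which the annotation is not stated. In CPM, not scaled by length, the means were 1409 for Nfkbia and 58.4 for Nfkb1. Nfkbib, which encodes the further inhibitor IkB-beta, and Bcl3, another nuclear IkB-like gene, stood at 155 and 83.2 TPM. Nfkbib is named here outside the naming rule, after its values were seen.

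**Figure D3:**
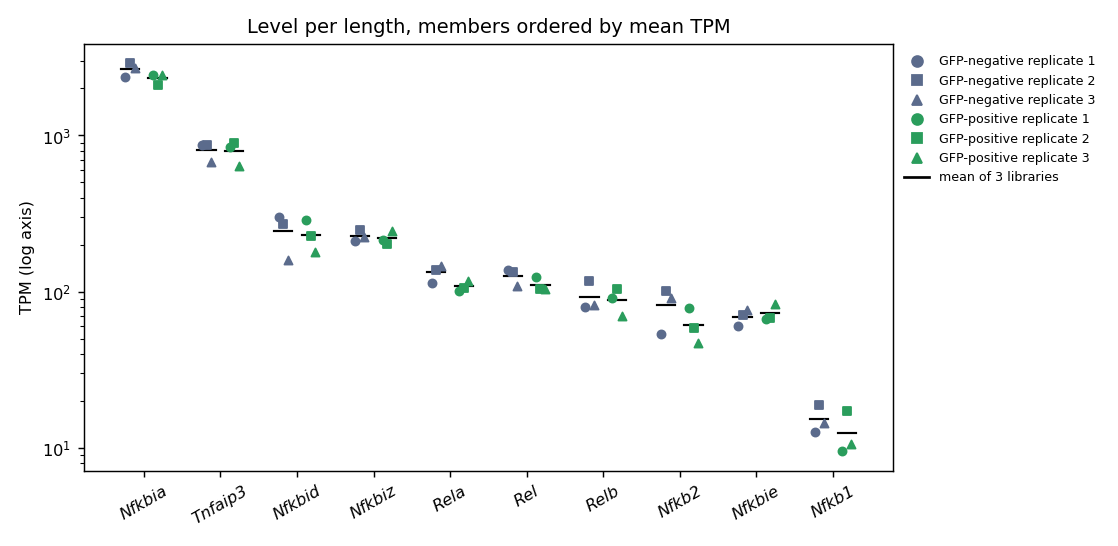
Level per length in TPM (vertical log axis) in each library, genes ordered by mean TPM, blue for GFP-negative and green for GFP-positive, with a bar at the mean of 3 libraries. Nfkbia lies between 2116 and 2897 TPM, apart from all others, and Nfkb1 lies between 9.47 and 18.8 TPM.

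The balance of inhibitor to subunit mRNA was similar in the libraries. The summed TPM of the 5 inhibitors was 8.605 to 10.3 times that of the 5 subunits. The ratio was 9.64, 8.605 and 8.65 in GFP-negative libraries and 9.54, 9.005 and 10.3 in GFP-positive libraries. These values overlapped between the gates. Nfkbia and Tnfaip3 together made up 85.0% to 88.0% of the inhibitor sum. Among subunits, Rela held 24.98% to 33.6%, Rel 24.6% to 34.5%, Relb 18.6% to 26.7%, Nfkb2 13.4% to 20.6% and Nfkb1 2.35% to 4.44% of the summed TPM. The summed subunit TPM was 397, 506 and 443 in GFP-negative libraries. It was 403, 389 and 348 in GFP-positive libraries, where the highest GFP-positive library lay above the lowest GFP-negative one. As a share of counts, which weights the subunits differently, the sums did not overlap. The 5 subunits held 0.0717% to 0.0871% of counts in GFP-negative libraries and 0.0637% to 0.0711% in GFP-positive ones. Among single tested genes, 8.80% were lower in GFP-positive cells without overlap. The difference between the sums was not tested.

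Over the 6 libraries the genes did not share 1 highest or lowest library. The difference between patterns was measured as the root mean square difference of log2 CPM, each gene centred on its own mean. Of 45 pairs, the most alike were Nfkbia and Nfkbiz at 0.09, then Nfkbie and Nfkbiz and also Rela and Nfkbia, each at 0.11. The least alike were Nfkb2 and Nfkbid at 0.52. Tnfaip3 was nearest to Relb at 0.16 and Rel at 0.17. These are descriptions over 6 libraries, which all genes share. The measure grows with the spread of each gene, so steady genes come out as alike and variable ones as unlike. Pairs of other genes were not set beside the 45.

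GFP-negative replicate 2 held the highest value of 4 of the 10 genes, Nfkb1, Nfkb2, Relb and Nfkbia, and the lowest of none. GFP-positive replicate 2 held the lowest value of 3, namely Rel, Nfkbia and Nfkbiz, and the highest of Tnfaip3. By the same measure over 9100 genes with at least 5 CPM on average, the genes most like Nfkb1 were Yipf5 (0.08), Carnmt1 (0.09) and Dynlt1f (0.09), where the median gene was at 0.45. Most like Nfkbia were Tle3 (0.04), Ndufb10 (0.05) and Cib1 (0.05), where the median gene was at 0.33.

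**Figure D4:**
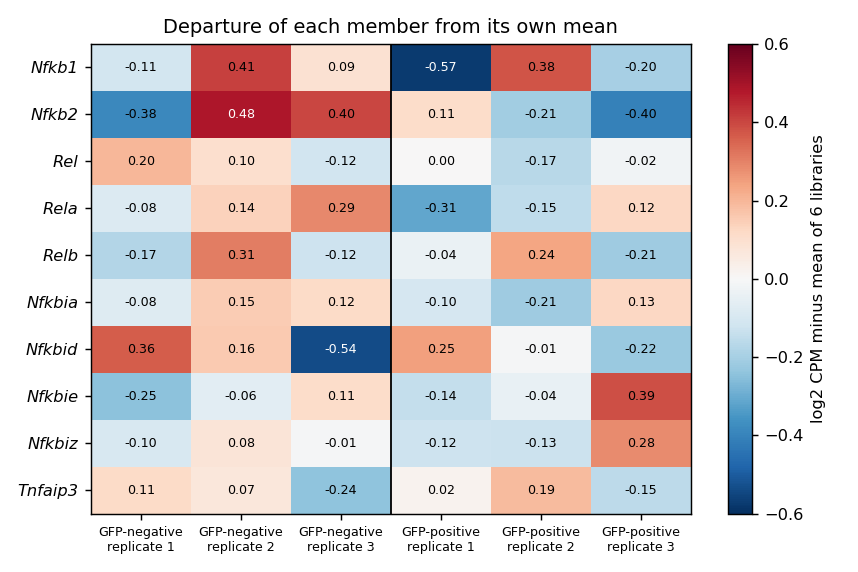
Each cell gives the log2 CPM of a gene (row) in a library (column) minus the mean of that gene over the 6 libraries, red above and blue below, with the gates parted by the black line. Nfkb2 in GFP-negative replicate 2 (0.48) and Nfkb1 in GFP-positive replicate 1 (-0.57) are among the largest departures, and no row is wholly red in 1 gate and blue in the other.

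Other genes of the pathway were counted in 5 lists with 92 distinct genes. By edgeR's test over all genes, 0 of the 90 tested passed, where 0.108% of all tested genes did. In the dissociation list, which is not a list of the pathway, 1 passed, Socs3, a feedback inhibitor of cytokine signalling. It stood at 131, 120.1 and 139.9 CPM in GFP-negative and 319.9, 256 and 383 CPM in GFP-positive libraries (edgeR adjusted p = 0.0125). Leaving out any library other than GFP-positive replicate 3 ended that call, with edgeR adjusted p-values from 0.0542 to 0.119.

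In calls, further IkB-family and feedback genes resembled the 10. Of 14 tested, 4 had a log2 fold change above 0 and 10 below, and the median was -0.06. Of these 14, 0 passed and 0 had an unadjusted edgeR p under 0.05, where 0.108% and 10.3% of all tested genes did. The median was -0.16, -0.089 and -0.12 without GFP-negative replicates 1, 2 and 3 in turn, -0.10 without GFP-positive replicate 1 and -0.15 on log2(TPM + 1). Bcl3 had 72.1, 77.5 and 89.2 CPM in GFP-negative and 57.7, 58.6 and 79.0 CPM in GFP-positive libraries, which overlapped (edgeR adjusted p = 0.676). Tnip2, an A20-binding inhibitor, had 30.4 ± 3.22 and 25.02 ± 2.03 CPM (SD, n = 3 each, edgeR adjusted p = 0.771). Its groups did not overlap, at 27.6 to 33.9 CPM in GFP-negative and 22.7 to 26.4 CPM in GFP-positive libraries. It was the 1 gene of the 14 without overlap, where 8.80% of tested genes were lower without overlap. Rnf11, a partner of A20, had 21.98 ± 5.98 and 17.3 ± 5.52 CPM (edgeR adjusted p = 0.801).

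Among 28 kinases, adaptors and ubiquitin ligases upstream of IkB, 19 were above 0 and 9 below, with a median of 0.10, and 0 passed the edgeR threshold. Leaving out GFP-negative replicate 1 gave a median of 0.063, leaving out GFP-positive replicate 3 gave 0.046, and log2(TPM + 1) gave 0.029. Their groups did not overlap for 4 genes, all higher in GFP-positive cells, against 7.25% of tested genes in that direction. The same 4 had an unadjusted p under 0.05, against 4.31%. Malt1, the paracaspase that links the antigen receptor to IkB kinase and also cleaves A20, had 98.3, 105 and 76.1 CPM in GFP-negative and 116, 139.5 and 155 CPM in GFP-positive libraries. Its log2 fold change was 0.56 ± 0.18 (SE; edgeR adjusted p = 0.269).

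Prkcq, the kinase PKC-theta that starts that link, had 147 ± 19.6 and 196 ± 21.8 CPM (SD, n = 3 each; edgeR adjusted p = 0.379), and Traf1, an adaptor of TNF-family receptors that NF-kB also induces, 499 ± 40.1 and 644 ± 58.8 CPM (edgeR adjusted p = 0.382). The fourth was Ikbkb, the catalytic subunit IKK-beta, with 220.2, 184 and 154 CPM in GFP-negative and 279.7, 223 and 237 CPM in GFP-positive libraries (edgeR adjusted p = 0.410). In TPM the groups of Ikbkb and of Traf1 overlapped, so the count of 4 holds for CPM only. Chosen after the values were seen, the IkB kinase genes had mean TPM of 28.4 ± 5.16 and 36.2 ± 6.69 for Ikbkb, 53.3 ± 13.5 and 49.6 ± 10.1 for Chuk and 13.2 ± 1.76 and 13.7 ± 1.52 for Ikbkg (SD, n = 3 each, GFP-negative first).

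Receptors that engage the pathway went both ways, 7 of 17 tested above 0, with 0 passing. Tnfrsf9, which encodes 4-1BB, had 88.0, 112 and 48.5 CPM in GFP-negative and 34.5, 45.3 and 23.5 CPM in GFP-positive libraries, and the log2 fold change was -1.27 ± 0.32 (SE; edgeR adjusted p = 0.174). It was called in 3 of 16 alternatives, by DESeq2 (adjusted p = 0.0198) and by edgeR with no filter (adjusted p = 2.12e-05) or with the replicate block (adjusted p = 0.0220). Cd28, the costimulatory receptor, had 541 ± 72.7 and 745 ± 166 CPM (SD, n = 3 each; edgeR adjusted p = 0.396), and Tnfrsf25, the receptor of TL1A, 101 ± 30.1 and 142 ± 13.1 CPM (edgeR adjusted p = 0.410).

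Genes that NF-kB is known to drive in T cells were split as well. Of 28 tested, which include Traf1, 17 were above 0 and 11 below, the median was 0.06, and 0 passed. Leaving out replicate 3 of the GFP-positive group gave 0.0063, and of the GFP-negative group 0.013. It was 0.11, 0.12 and 0.14 without GFP-negative replicates 1 and 2 and GFP-positive replicate 1, and -0.031 on log2(TPM + 1). An unadjusted edgeR p under 0.05 was reached by 4 upward, against 4.31% of tested genes, and by 4 downward, against 5.97%. The list holds Il2, at 8.88 ± 2.20 and 22.7 ± 2.11 CPM (SD, n = 3 each; edgeR adjusted p = 0.170), and Tnfrsf9 on the other side. Ccr7, a homing receptor, had 18.03, 24.8 and 16.4 CPM in GFP-negative and 24.2, 37.5 and 57.8 CPM in GFP-positive libraries (edgeR adjusted p = 0.290). Its highest value lay in GFP-positive replicate 3, and its log2 fold change of 1.01 was 0.65 without that library.

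Regulators of the stability of immune mRNA mostly destabilise it, with Nfkbiz and Rel among their known targets, while Arid5a is known to stabilise it. Of the 9 regulators, 7 were above 0, with a median of 0.24. Of the 9, 0 passed and 0 had an unadjusted edgeR p under 0.05, where 0.108% and 10.3% of all tested genes did. Zfp36l2 had 307 ± 57.2 and 402 ± 84.0 CPM (SD, n = 3 each; edgeR adjusted p = 0.499) and Rc3h2, which encodes Roquin-2, 48.9 ± 13.5 and 63.6 ± 8.50 CPM (edgeR adjusted p = 0.649). Zfp36, which encodes tristetraprolin, had 526, 437 and 407 CPM in GFP-negative and 549, 470.1 and 1088 CPM in GFP-positive libraries (edgeR adjusted p = 0.571), the last being replicate 3, and its log2 fold change of 0.62 was 0.17 without that library. In the dissociation list 21 of 24 were above 0, with a median of 0.32, or 0.18 without GFP-negative replicate 3. Its Hspa1b, a heat shock protein gene, had 192 ± 43.0 and 275 ± 1.83 CPM (SD, n = 3 each; edgeR adjusted p = 0.272), and Ppp1r15a, a stress phosphatase regulator, 545 ± 14.5 and 726 ± 149 CPM (edgeR adjusted p = 0.382).

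**Figure D5:**
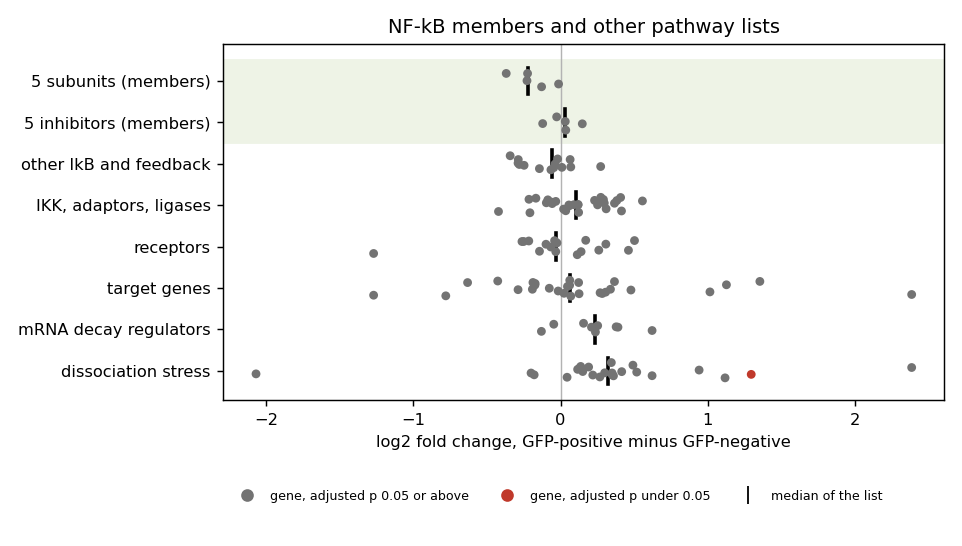
Log2 fold change of each tested gene, GFP-positive minus GFP-negative (horizontal axis), by list (rows), with the 10 NF-kB genes in the shaded rows, a black bar at each median and red for an adjusted p under 0.05. The 10 genes lie between -0.37 and 0.15, and Socs3 in the dissociation list is the red point.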

How the data were processed

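The authors deposited raw counts per gene and TPM for the 6 libraries. The submitters' processing notes name the build mm10 and the tools deepTools 3.5.1, SAMtools 1.17, STAR 2.7.10b and fastp 0.23.3. Which counter and annotation were used is not stated there. Per the labels' protocols, cDNA was amplified and tagged with Nextera XT, a kit that keeps no strand; molecular identifiers are not mentioned. Groups and replicate numbers came from the titles.

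The deposited counts were tested with edgeR 4.0.16 (R 4.3.3): TMM factors, default expression filter by group (minimum count 10), robust quasi-likelihood F-test on the group, Benjamini-Hochberg over 11074 genes, threshold 0.05. The SE was derived from the fold change and F, and 95% intervals from the SE and the moderated degrees of freedom. The deposited TPM were used for levels between genes, untested, and in limma 3.58.1 on log2(TPM + 1) and log2(TPM + 0.1). Other alternatives were DESeq2 1.42.0, limma-voom, other scaling (RLE factors or library size alone), other filters (none, or 1 CPM in 3 libraries), the replicate number as a block, and each library left out in turn. The tests were also tested on simulated data. The genes and lists were chosen with earlier results of these data known. Named genes were the 10, Tcf7, per list those called plus the 3 with the smallest edgeR p, marker genes with the highest mean CPM, and the 3 genes most like Nfkb1 and Nfkbia. Marker genes at 0 are named as checks. Arid5a, Nfkbib, Ikbkb, Chuk, Ikbkg, Xcr1, Zbtb46 and Clec9a were named after their values were seen. Gene positions are those of GENCODE M21 on mm10. No replicates were duplicates (smallest chi-square per degree of freedom 11.1).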

Additional observations from a re-analysis of the deposited data

How the results depend on the processing

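None of the 10 NF-kB genes was called under any of the 16 alternatives, with adjusted p-values from 0.305 to 0.999. Nfkb1, Nfkb2, Rel, Rela and Nfkbia stayed below 0 in each. The others lie close to 0 and changed sign in 19 of 160 values over the 10 genes. On log2(TPM + 1) Nfkbiz had -0.0445 and Tnfaip3 -0.0276, with or without the filter, and on log2(TPM + 0.1) they had -0.0447 and -0.0276; limma-voom gave Nfkbid 0.0035 and the replicate block gave it 0.0089. Leaving out 1 library gave ranges of -0.14 to 0.15 for Relb, -0.24 to 0.16 for Nfkbid, -0.024 to 0.25 for Nfkbie, -0.11 to 0.10 for Nfkbiz and -0.061 to 0.13 for Tnfaip3. The ratio of inhibitor to subunit TPM, 9.29 on average, stayed between 9.09 and 9.43 without 1 library.

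The count over all genes, 12, was 19 with library size alone, 373 with no filter, 156 by DESeq2, 5 by limma-voom, 81 with the replicate block, 1 on log2(TPM + 1), 0 on log2(TPM + 0.1) and 0 on unfiltered log2(TPM + 1), and 0 to 42 leaving out 1 library, 42 being without GFP-positive replicate 3. In the 5 pathway lists and the dissociation list together, the count of 1 (Socs3, of the latter) was 6 with no filter, 2 by DESeq2, 2 with the replicate block, 0 in the 3 TPM fits and 0 to 2 leaving out 1 library; why was not tested. The deviations of same-numbered libraries had a Pearson r across genes of 0.104, 0.097 and 0.104, and every library correlated best with its own number, but the labels tie the numbers to nothing shared, so pairing was not used. The lowest count of any of the 10 genes in a library was 220.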
